A study of Homo sapiens with 12 samples.

Results

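The comparison was between cells labelled MM1S after 3 days and after 2 days in 10 μM NGI-1. It took 6 of the 12 total RNA libraries of the series, 3 labelled day 3 and 3 labelled day 2, and 11939 of 59276 deposited features, those with 3 or more of the 12 libraries at 1 TPM or above. MM1S is a human multiple myeloma line, grown from a cancer of antibody-secreting plasma cells, and NGI-1 is a small molecule inhibitor of the oligosaccharyltransferase (OST) complex. The other libraries were 3 of day 0, which the labels also list as NGI-1 treated although the paper sets treated cells of the later days against untreated ones, and 3 of day 5. No untreated library of day 2 or day 3 was analysed here, so a further day in the compound and a further day in culture cannot be told apart. The labels do not say that the libraries of a group came from separate cultures, and the p-values below then measure only the spread between these libraries. This step between neighbouring time points was picked because it held the largest change, so its size is a description.

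OST sits in the membrane of the endoplasmic reticulum (ER) and moves a preformed glycan onto asparagine residues of nascent secretory and membrane proteins. Plasma cells depend on this machinery because they fold and export large amounts of immunoglobulin, and they carry high levels of ER chaperones. Cells that leave the cell cycle lose the transcripts of the S phase genes, which are largely under E2F control, and of the mitotic genes, which are read from promoters with CHR and CCAAT elements by the MuvB, FOXM1 and NF-Y proteins.

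Plasma cell markers were abundant in all 6 libraries. The 9 markers of the list summed to 19036 to 22240.5 TPM at day 2 and 25498 to 28390.5 TPM at day 3, most of it from JCHAIN, the chain that joins antibody multimers. Of the 9, 5 were called lower and 1 higher as deposited, and 0 lower and 2 higher after rescaling, with a median log2 change -0.89, or -0.25 after rescaling. These are 55.6% and 0% lower, beside 55.5% and 13.6% of all features, and 3.22% and 14.3% of all features were higher. The deposited share was thus close to that of all features. Of the 6 B cell markers 1 (FCER2) was above the filter, with sums of 2.69 to 4.06 TPM at day 2 and 1.89 to 2.48 TPM at day 3. The 7 T and NK cell markers also left 1 (CD3E), with 5.22 to 7.17 and 4.996 to 7.24 TPM in sum. The 7 myeloid markers summed to at most 0.722 TPM and the 5 erythroid markers to at most 1.39 TPM in any of the 6 libraries. The 7 stromal or epithelial markers left PECAM1, and their sum was 4.98 to 8.22 TPM at day 2 and 2.296 to 4.33 TPM at day 3.

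The light chain and translocation genes stood against the line's name. MM1S is known as a lambda light chain line with a translocation that drives MAF. In the libraries labelled MM1S the kappa constant gene IGKC stood at 23701, 27555 and 24511 TPM at day 2, while the lambda gene IGLC2 stood at 1.89, 3.42 and 0.945 TPM and IGLC1 at 903, 1058 and 815 TPM. FGFR3, a receptor tyrosine kinase, was at 337, 349.7 and 323 TPM and NSD2, a histone methyltransferase, at 102, 109 and 108 TPM, against 8.49, 8.48 and 7.65 TPM for the transcription factor MAF. These genes were chosen after their values were seen. The cells are called here by their label and no other identity is given.

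TPM is a length-corrected share that sums to a fixed total in every library, so a rise of a few abundant transcripts lowers all others. Each result is therefore given on 2 scales. The first is log2(TPM + 1) as deposited. The second, called rescaled, divided each library by 1 factor, chosen over features averaging 10 TPM or more so that the median log2 ratio against the average library became 0. A feature was called lower or higher at a Benjamini-Hochberg adjusted p under 0.05 in limma's moderated test and a log2 change over 0.5 in size. The largest changes were named by a fixed rule, and further genes of the lists were chosen after their values were seen. The factors were 1.26 to 1.30 at day 2 and 0.768 to 0.891 at day 3. Day 3 library 2 had the factor nearest to day 2 and stood nearest to the day 2 libraries, at a mean Euclidean distance of 73.9 over the tested features, against 93.5 and 95.3 for the other day 3 libraries.

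From day 2 to day 3, 6624 of the 11939 tested features (55.5%) were called lower and 384 (3.22%) were called higher on the deposited scale, 58.7% in either direction. After rescaling the counts were 1624 lower (13.6%) and 1713 higher (14.3%). The scale thus decided whether the step looked one-sided, and the median log2 change of all tested features was -0.57 as deposited, 1.49-fold lower, and -0.072 after rescaling. The calls were nested. Day 2 was divided by larger factors than day 3, so rescaling raised the changes and the nesting largely follows from that. A call on both scales is thus not 2 independent results. All 1624 features lower after rescaling were also lower as deposited, and all 384 features higher as deposited were also higher after rescaling, so these 2 sets were called the same way on both scales. A further 5000 were lower on the deposited scale alone and 1329 were higher after rescaling alone, and 0 features changed sides. In 8365 features (70.1%) all day 3 libraries lay below all day 2 libraries, and in 827 (6.93%) all lay above, on the deposited scale. TPM holds no absolute amount, and in bulk RNA fewer cells of a kind and less RNA per cell cannot be told apart.

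**Figure D1:**
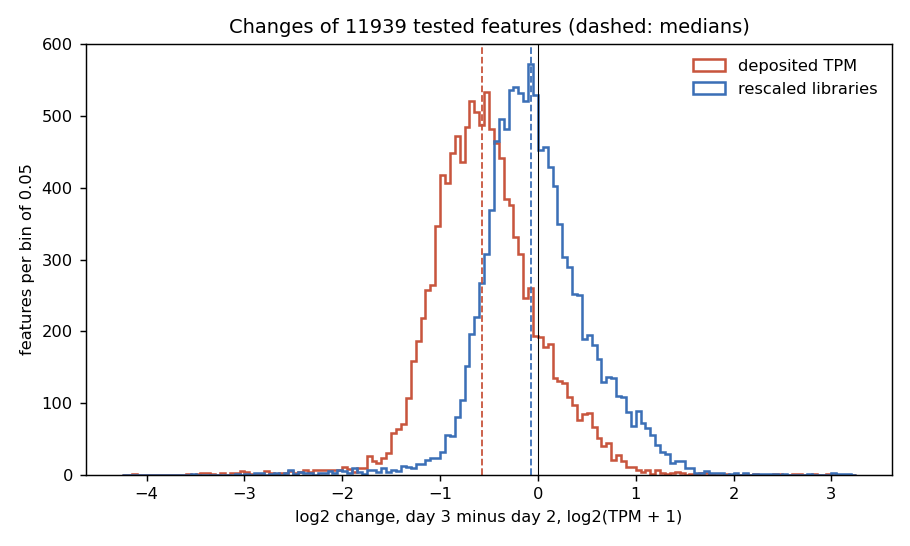
Number of tested features (vertical axis, per bin of 0.05) by log2 change of log2(TPM + 1), day 3 minus day 2, on the deposited scale (red) and after rescaling (blue), with dashed lines at the medians. The deposited distribution is shifted to the left with a median of -0.57, and the rescaled one is centred close to 0 with a median of -0.072.

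Day 3 library 2 lay between the groups in most of the called genes. It was the highest of the day 3 libraries in 84.6% of the 1624 genes lower on both scales, or in 72.2% when rescaled values were compared. It was the lowest in 69.0% of the 384 genes higher on both scales, or in 80.7% of them on rescaled values. Without this library the counts were 7004 lower and 452 higher on the deposited scale, and 2066 lower and 1867 higher after rescaling. Within day 2 the 3 libraries lay 34.0 apart and within day 3 35.3 apart on average, against 87.6 between the groups.

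Ribosomal protein and mitochondrial transcripts held a larger share of TPM in each day 3 library than in any day 2 library. The 77 cytoplasmic ribosomal protein genes held 33.4, 33.3 and 33.9% of all TPM in the day 2 libraries and 42.97, 40.1 and 44.2% in the day 3 libraries. The groups did not overlap, and the mean went from 33.6% ± 0.324 to 42.4% ± 2.10 (SD, n = 3 each), a difference of 8.85 percentage points with an exact two-sided permutation p = 0.1, the smallest that 3 against 3 libraries allow. The 37 mitochondrially encoded features went from 11.01, 10.9 and 11.2% to 13.4, 12.4 and 13.9%, again without overlap and again at the smallest exact permutation p of 0.1. The 400 immunoglobulin features moved the other way, from 5.71, 6.44 and 5.66% to 3.42, 4.07 and 3.45%. JCHAIN alone took 1.69% of TPM at day 2 and 2.37% at day 3. All features outside the classes counted here went from 47.2% to 36.3%. The 5.8S ribosomal RNA feature RNA5-8SN2 held 0.7302, 0.232 and 0.3597% at day 2 and 1.28, 3.904 and 0.371% at day 3, with the highest value in day 3 library 2 and overlapping groups.

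**Figure D2:**
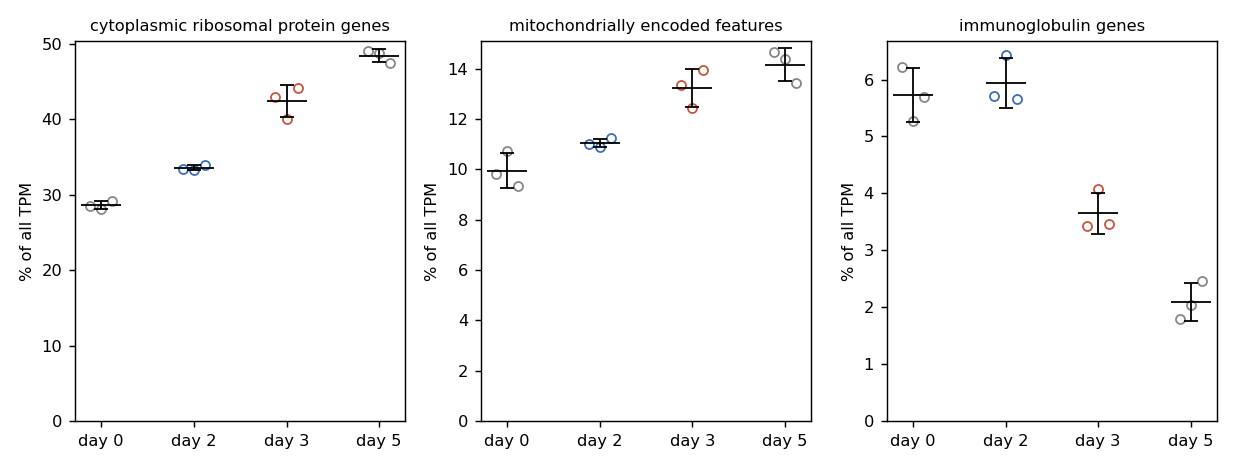
Share of all TPM (%) held by cytoplasmic ribosomal protein genes, mitochondrially encoded features and immunoglobulin genes, by day, with 1 point per library and bars for mean ± SD (n = 3). Between day 2 and day 3 the mean ribosomal protein share goes from 33.6% to 42.4% and the immunoglobulin share from 5.94% to 3.65%.

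The largest falls were in cell cycle genes. The 12 largest falls among genes lower on both scales, averaging 10 TPM or more and without overlap of the groups, were RRM2, PLK1, TK1, NUSAP1, UBE2C, CDC20, TPX2, PRC1, TROAP, KIF2C, TYMS and TOP2A. RRM2 (GENCODE 29 on GRCh38, chromosome 2, 10120698 to 10131419), the small subunit of ribonucleotide reductase, which makes deoxynucleotides, stood at 116, 149 and 122 TPM in the day 2 libraries and at 4.87, 7.64 and 7.39 TPM in the day 3 libraries. Each day 3 library was thus far below each day 2 library, and the mean fell 19.5-fold (log2 change -4.104 ± 0.15 (SE), adjusted p = 7.56e-10), with -3.51 after rescaling. PLK1 (chromosome 16, 23677656 to 23690367), the kinase that drives mitotic entry and spindle assembly, went from 22.1, 21.9 and 18.99 TPM to 0.6704, 0.935 and 1.03 TPM, a log2 change of -3.55 ± 0.12 (SE). UBE2C, the ubiquitin-conjugating enzyme of the anaphase-promoting complex, held 109, 107 and 97.8 TPM and then 7.302, 11.1 and 8.49 TPM. Its co-activator CDC20 fell from 33.4, 34.2 and 31.6 TPM to 2.55, 2.38 and 1.77 TPM. The call on both scales was a condition of the rule that named them. All 12 genes kept the call without any 1 library, and their day 3 means lay between 0.878 and 8.97 TPM.

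Other genes of this set make thymidine nucleotides. Thymidine kinase TK1 went from 23.7, 29.3 and 24.3 TPM to 1.53, 1.47 and 1.17 TPM and thymidylate synthase TYMS from 25.2, 24.1 and 25.5 TPM to 1.94, 2.63 and 1.54 TPM. The spindle genes NUSAP1, TPX2, PRC1 and KIF2C fell 13.5-fold, 15.97-fold, 16.6-fold and 15.2-fold in mean TPM. TOP2A, the topoisomerase that untangles chromosomes, fell from 22.1, 20.2 and 21.4 TPM to 1.41, 2.16 and 1.38 TPM.

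**Figure D3:**
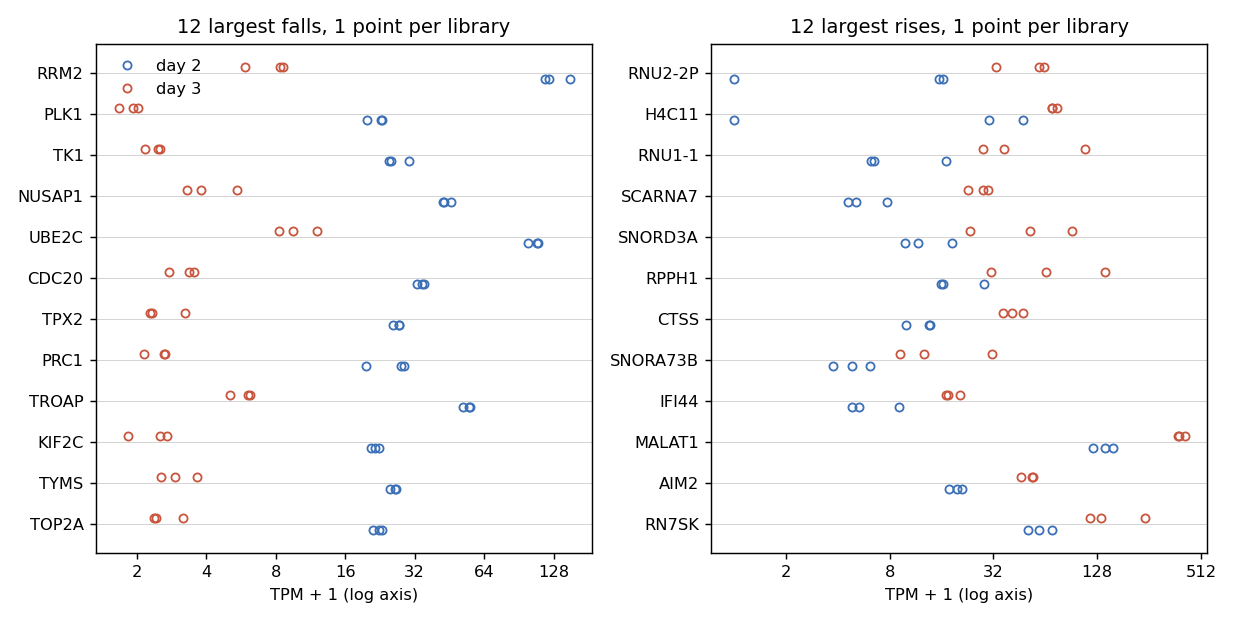
TPM + 1 on a log axis in each day 2 (blue) and day 3 (red) library for the 12 largest falls (left) and the 12 largest rises (right). Groups without overlap were a condition for both sets. The falls lie far apart, as in RRM2 with 116 to 149 TPM at day 2 and 4.87 to 7.64 TPM at day 3, while several rises of small RNAs are spread widely between libraries.

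The whole mitotic list moved with them. Of its 57 tested genes 57 were called lower on the deposited scale, where 55.5% of all features were, and 56 after rescaling, where 13.6% were. They had a median log2 change -2.39, or -1.89 after rescaling, beside -0.57 and -0.072 for all tested features. The smallest fall was that of BUB3, a spindle checkpoint protein (99.4 to 53.6 TPM, log2 change -0.88, and -0.25 after rescaling, where it was not called). The cyclins CCNB1 (54.5 to 5.82 TPM), CCNB2 (25.6 to 2.14 TPM) and CCNA2 (12.1 to 1.24 TPM), the proliferation marker MKI67 (12.9 to 0.807 TPM) and the mitotic transcription factors FOXM1 (8.56 to 0.419 TPM) and MYBL2 (55.3 to 5.92 TPM) were lower on both scales. The list's share of all TPM went from 0.127, 0.124 and 0.125% at day 2 to 0.0223, 0.0241 and 0.0208% at day 3. It was lower in every day 3 library than in any day 2 library.

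The stretch upstream of the RefSeq start is shown for PLK1, CDC20 and PRC1 because these windows hold both elements of mitotic promoters. They are the 250 bases before the start, 5′ to 3′ on the gene's strand, from RefSeq promoters on GRCh38.p14, with capitals on the CHR letters TTTGAA and the CCAAT letters, searched on both strands. The RefSeq start is not that of the GENCODE 29 gene, and the PLK1 and PRC1 windows lie inside the GENCODE gene while that of CDC20 reaches into it.
PLK1, chr16:23678639-23678888, plus strand: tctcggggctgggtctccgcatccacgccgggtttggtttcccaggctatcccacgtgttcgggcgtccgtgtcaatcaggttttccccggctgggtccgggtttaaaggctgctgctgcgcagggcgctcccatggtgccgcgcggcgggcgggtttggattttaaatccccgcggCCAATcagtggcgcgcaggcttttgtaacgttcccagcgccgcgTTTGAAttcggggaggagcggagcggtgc
CDC20, chr1:43358731-43358980, plus strand: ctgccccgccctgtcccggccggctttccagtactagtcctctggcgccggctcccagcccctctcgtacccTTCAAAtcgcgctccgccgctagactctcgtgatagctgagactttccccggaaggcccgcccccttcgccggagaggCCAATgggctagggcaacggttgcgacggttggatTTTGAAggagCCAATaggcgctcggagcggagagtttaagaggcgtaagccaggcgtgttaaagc
PRC1, chr15:90994536-90994785, minus strand: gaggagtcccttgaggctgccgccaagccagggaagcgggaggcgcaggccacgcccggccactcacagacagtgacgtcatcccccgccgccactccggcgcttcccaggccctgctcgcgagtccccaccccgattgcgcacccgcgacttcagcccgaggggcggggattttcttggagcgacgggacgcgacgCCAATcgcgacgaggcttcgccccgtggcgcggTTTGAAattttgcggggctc
RefSeq gave a window for 49 of the 57 mitotic genes, and TTTGAA was found in 23 of 49 (46.9%), CCAAT in 36 of 49 (73.5%) and both in 19 of 49 (38.8%). Among the 8941 tested features with a window the shares were 7.99%, 36.3% and 3.47%, and among all 27305 windows they were 13.6%, 33.0% and 4.85%. In the windows of all genes lower on both scales TTTGAA was found in 10.8%, CCAAT in 40.1% and both in 6.14%. In those of genes higher on both scales the shares were 12.9%, 37.3% and 6.87%. TTTGAA was thus more frequent in the lower set than among tested features (7.99%), but not more frequent than in the higher set. A match is a description of the letters and not a shown binding site.

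The DNA replication genes were lower as well. Of 40 tested, 39 were called lower as deposited and 32 after rescaling (median log2 change -1.31, or -0.82 after rescaling). These are 97.5% and 80% lower, beside 55.5% and 13.6% of all features. The licensing factor CDC6 went from 26.3, 25.1 and 24.7 TPM to 2.82, 2.18 and 2.49 TPM (log2 change -2.92 ± 0.105 (SE), adjusted p = 5.97e-10) and its partner CDT1 from 6.67 to 0.6095 TPM. All 6 subunits of the MCM2 to MCM7 helicase were lower on both scales, from MCM4 (log2 change -2.21) to MCM6 (-1.22), and so was the sliding clamp PCNA (31.7 to 13.5 TPM). The exception was RPA3, the smallest subunit of the single-strand binding protein, with 22.8, 16.96 and 16.2 TPM and 19.2, 18.2 and 22.2 TPM, overlapping groups and a log2 change of 0.099, called higher after rescaling (0.701). Upstream windows of 35 of these genes held the E2F letters TTTNNCGC in 14 of 35 (40.0%), against 9.76% of the windows of tested features, and TTTGAA in 0.

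Deoxynucleotide genes did not all move together. Of 15 tested, 11 were called lower as deposited and 6 after rescaling, and 2 were called higher after rescaling. These are 73.3% and 40% lower, beside 55.5% and 13.6% of all features. The S phase enzymes RRM2, TK1, TYMS and RRM1 (24.7 to 7.05 TPM) were lower on both scales, while RRM2B, the p53-inducible small subunit of ribonucleotide reductase, stood at 13.3, 11.6 and 11.4 TPM and 13.6, 13.7 and 12.7 TPM and overlapped (log2 change 0.13 ± 0.11 (SE), adjusted p = 0.3002). In the E2F and G1/S list 20 of 22 (90.9%) were called lower on the deposited scale and 11 (50%) after rescaling, beside 55.5% and 13.6% of all features. E2F2 fell furthest (11.7, 11.7 and 10.8 TPM to 1.15, 1.28 and 0.906 TPM, log2 change -2.55 ± 0.11 (SE), adjusted p = 2.69e-09), and cyclin D1 (CCND1, 32.8 to 11.6 TPM), CDC25A (3.3999 to 0.335 TPM) and the CDK subunit CKS1B (139 to 42.1 TPM) were lower on both scales. E2F5 stood at 9.21 and 9.17 TPM (log2 change -0.0048, adjusted p = 0.9804) and was called higher after rescaling. In the DNA repair and checkpoint list 29 of 30 (96.7%) were called lower on the deposited scale and 21 (70%) after rescaling, beside 55.5% and 13.6% of all features. FANCI, of the Fanconi anaemia pathway, had the largest fall (21.7 to 3.45 TPM, log2 change -2.37 ± 0.17 (SE), adjusted p = 2.59e-07), and the checkpoint kinase CHEK1 (12.9 to 1.79 TPM) was lower on both scales. FANCB, with 0.497 and 0.123 TPM, was the member of that list that was not called.

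CDK inhibitors and their relatives were called lower about as often as all features. Of 24 tested CDK inhibitors, p53 targets and RB family genes 13 were called lower and 0 higher as deposited, with 3 lower and 3 higher after rescaling (median log2 change -0.52, or 0.033 after rescaling). These are 54.2% and 12.5% lower, beside 55.5% and 13.6% of all features, and 3.22% and 14.3% of all features were higher. CDKN1A, which encodes the inhibitor p21, fell on both scales from 27.1, 25.2 and 22.9 TPM to 7.35, 8.07 and 7.6999 TPM (log2 change -1.58 ± 0.13 (SE), adjusted p = 9.22e-07), as did the RB relatives RBL1 (6.52 to 2.16 TPM) and RBL2 (11.6 to 5.03 TPM). CDKN2C (p18) went from 361 to 379 TPM and CDKN1B (p27) from 30.97 to 33.8 TPM, log2 changes of 0.067 and 0.12 that were called higher only on the rescaled values. PLK2, a p53 target, had the largest positive value of the list (0.31, adjusted p = 0.0768) at 2.95 TPM.

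In the MYC network 8 of 10 (80%) were called lower on the deposited scale and 3 (30%) after rescaling, beside 55.5% and 13.6% of all features. MYC, a transcription factor that drives growth in many myelomas, stood at 109, 125 and 112 TPM at day 2 and 39.8, 65.9 and 45.4 TPM at day 3, with the highest day 3 value in library 2 and no overlap. It fell 2.29-fold (log2 change -1.21 ± 0.19 (SE), adjusted p = 1.14e-04) and was lower after rescaling too (-0.58). MXD3, a MYC antagonist, fell from 4.33 to 0.966 TPM (log2 change -1.42). MYCBP, a MYC-binding protein, stood at 25.02 and 24.1 TPM with overlapping groups and was called higher after rescaling.

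The subunits of OST, the target of NGI-1, moved apart. Of 12 tested, 5 were called lower as deposited and 1 after rescaling, where 4 were called higher (median log2 change -0.31, or 0.31 after rescaling). These are 41.7% and 8.33% lower, beside 55.5% and 13.6% of all features, and 14.3% of all features were higher after rescaling. RPN2, a structural subunit, went from 435, 489 and 441 TPM to 172, 211 and 166 TPM and was the subunit lower on both scales (log2 change -1.31 ± 0.12 (SE), adjusted p = 2.83e-06, -0.68 after rescaling). The catalytic subunit STT3A (349, 365 and 351 TPM to 172, 194 and 161 TPM), DDOST (546 to 254 TPM), KRTCAP2 (458 to 211 TPM) and RPN1 (348 to 212 TPM) were lower as deposited and not called after rescaling. The other catalytic subunit STT3B (263 to 202 TPM, log2 change -0.38), MAGT1 (-0.25) and OST4 (-0.24) were called on neither scale. DAD1 stood at 369.8, 347 and 366 TPM and 411, 366 and 428 TPM and overlapped (log2 change 0.15 ± 0.077 (SE), adjusted p = 0.0924). DAD1, OSTC, TMEM258 and the scarce TUSC3 (mean 0.972 TPM at day 3) were the 4 called higher after rescaling, at 0.78, 0.67, 0.57 and 0.68.

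ER chaperones and folding genes were lower at day 3. Of 37 tested, 33 were called lower as deposited and 17 after rescaling, against 55.5% and 13.6% of all features (median log2 change -1.11, or -0.48 after rescaling). EDEM1, which hands misfolded glycoproteins to degradation, had the largest fall, from 54.8, 55.98 and 50.6 TPM to 13.5, 20.3 and 14.3 TPM (log2 change -1.71 ± 0.18 (SE), adjusted p = 7.02e-06). The chaperone HSPA5 (BiP) went from 273, 289 and 278 TPM to 106, 129 and 98.8 TPM and calreticulin (CALR), which binds monoglucosylated glycoproteins, from 1034, 1075 and 1018 TPM to 349, 434 and 317 TPM, log2 changes of -1.33 and -1.52 that were called on both scales. The degradation genes SYVN1 (70.9 to 24.2 TPM), DERL3 (185 to 56.6 TPM) and SEL1L (79.5 to 35.3 TPM) and the cofactors HYOU1 (163 to 56.7 TPM) and SDF2L1 (103 to 34.1 TPM) were also lower on both scales. XBP1, the transcription factor of the unfolded protein response, went from 1189 to 644 TPM and HSP90B1 (GRP94) from 1183 to 574 TPM, both called lower as deposited alone. CNPY2 had the smallest change at -0.094 and was called higher after rescaling. The upstream windows of 34 of these genes held CCAAT in 28 of 34 (82.4%), beside 36.3% of tested features.

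The ATF4 and CHOP branch answers stress with amino acid genes. Its share of lower calls stood above that of all features as deposited and nearer to it after rescaling. There 22 of 27 (81.5%) were called lower on the deposited scale and 5 (18.5%) after rescaling, beside 55.5% and 13.6% of all features (median log2 change -0.82, or -0.25 after rescaling). The amino acid transporter SLC7A5 fell from 93.8, 98.8 and 82.98 TPM to 22.2, 37.9 and 24.8 TPM (log2 change -1.696 ± 0.198 (SE), adjusted p = 1.37e-05), and DDIT4 (61.1 to 26.5 TPM), STC2 (42.2 to 18.03 TPM), SLC7A1 (14.1 to 5.72 TPM) and WARS1 (153 to 55.2 TPM) were the others lower on both scales. ATF4 itself (437 to 351 TPM, -0.32) and ASNS (141 to 116 TPM, -0.28) were not called. DDIT3, which encodes CHOP, stood at 27.9, 22.2 and 28.1 TPM and 24.8, 20.96 and 25.5 TPM with overlap (log2 change -0.12, adjusted p = 0.327). Among 17 tRNA synthetases 15 were called lower as deposited and 2, WARS1 and VARS1, after rescaling. These are 88.2% and 11.8% lower, beside 55.5% and 13.6% of all features. RARS1 changed least (-0.24).

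The largest rises were mostly in small structured RNAs. The 12 largest rises by the same rule were RNU2-2P, H4C11, RNU1-1, SCARNA7, SNORD3A, RPPH1, CTSS, SNORA73B, IFI44, MALAT1, AIM2 and RN7SK. SCARNA7, a guide RNA of the Cajal body, stood at 6.6997, 3.55 and 4.07 TPM at day 2 and 28.5, 26.7 and 21.7 TPM at day 3 (log2 change 2.24 ± 0.19 (SE), adjusted p = 1.21e-06). RN7SK, which holds the transcription elongation factor P-TEFb inactive, went from 57.9, 68.7 and 49.7 TPM to 134, 242 and 115 TPM. RPPH1, the RNA of RNase P, went from 27.3, 14.9 and 15.2 TPM to 63.6, 140.2 and 30.1 TPM and the U3 RNA SNORD3A from 17.4, 10.7 and 8.799 TPM to 51.4, 90.1 and 22.5 TPM. In these 3 RNAs and in SNORA73B (3.86, 2.76 and 5.18 TPM to 11.7, 30.5 and 8.12 TPM) the highest value was in day 3 library 2, the library in which RNA5-8SN2 was highest too, and the part of ribosomal and small RNA content of the library in these rises was not tested. The U1 RNA RNU1-1 rose from 5.49, 15.9 and 5.25 TPM to 108, 35.6 and 26.97 TPM with the highest value in day 3 library 1 instead. RNU2-2P, a U2 copy, was listed at 0 in day 2 library 3 and otherwise went from 15.4 and 14.5 TPM to 57.6, 62.01 and 31.99 TPM. The call of RNU1-1 was lost without day 2 library 1 (limma adjusted p = 0.0573), day 2 library 3 (0.0601) or day 3 library 1 (0.0862). The call of SNORA73B was lost without day 2 library 1 (0.0532), day 2 library 2 (0.0806) or day 3 library 2 (0.119).

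Of the list of small nuclear and other structured RNAs 19 of 2012 members in the table passed the filter. On the deposited scale 9 were called higher and 1 lower, and after rescaling 11 were higher and 0 lower (median log2 change 1.04). Of all features 3.22% were called higher and 55.5% lower as deposited, and 14.3% and 13.6% after rescaling. Members could pass the filter through the later libraries alone, and RNU2-2P stood at 0 at day 0. RN7SL1 (215 to 261 TPM), RN7SL2 (418 to 284 TPM) and RMRP (97.8 to 70.3 TPM) were among those not called, and SNORA71B, at 2.11 and 0.407 TPM, was the member called lower, a call lost without day 2 library 1 (adjusted p = 0.0593) or day 3 library 3 (0.0589). U1, U2 and U3 RNAs have near-identical copies in the genome, and how reads were divided among the copies is not known, so the values of single copies are uncertain. The paper states that total RNA was extracted, which alone does not show that RNAs without a poly(A) tail were kept in full. Of the 2012 members, 1983 were at 0 in all 6 libraries. The class as a whole held 0.0944, 0.0607 and 0.112% of all TPM at day 2 and 0.118, 0.164 and 0.0585% at day 3. The groups overlapped (exact two-sided permutation p = 0.5), so the rises of single members were not a clear rise of the class.

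Replication-dependent histone messengers were mostly not called lower, unlike the replication genes. Such messengers typically lack a poly(A) tail, and whether the transcripts counted here did was not tested. Of 66 listed, 28 were tested, and 6 were called higher and 1 lower as deposited, 12 and 0 after rescaling (median log2 change -0.029, or 0.47 after rescaling). Of all features 3.22% were called higher and 55.5% lower as deposited, and 14.3% and 13.6% after rescaling. H2AC6 rose from 43.4, 38.6 and 43.3 TPM to 106, 90.5 and 106 TPM (log2 change 1.25 ± 0.102 (SE), adjusted p = 8.26e-07), and H2BC5 (23.2 to 46.2 TPM) and H4C8 (12.7 to 23.3 TPM) rose too. H4C11 was listed at 0 in day 2 library 1 and stood at 46.8 and 29.1 TPM in the other day 2 libraries, against 69.2, 74.2 and 68.99 TPM at day 3. Its call (adjusted p = 0.0228) was lost in a fit of the 6 libraries alone (adjusted p = 0.0551). The most abundant members H1-2 (248 to 257 TPM), H2BC12 (288 to 304 TPM) and H2AC19 (169.7 to 180.4 TPM) were called higher only after rescaling, and H2AC20 was the member called lower (8.05 to 4.38 TPM), a call lost without day 3 library 1 (adjusted p = 0.0616).

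Among 18 tested long noncoding RNAs, 5 were called higher and 5 lower as deposited, and 11 higher and 0 lower after rescaling. Of all features 3.22% were higher and 55.5% lower as deposited, and 14.3% and 13.6% after rescaling. MALAT1 (chromosome 11, 65497688 to 65506516), a nuclear RNA of splicing speckles, rose from 157, 120.4 and 139.995 TPM to 411, 382 and 378 TPM without overlap (log2 change 1.49 ± 0.13 (SE), adjusted p = 1.82e-06), 2.803-fold in mean TPM. NEAT1, the RNA of paraspeckles, went from 22.9 to 35.5 TPM, and the snoRNA hosts ZFAS1 (328 to 626 TPM), SNHG8 (301 to 496 TPM) and GAS5 (1912 to 2810.0 TPM) were the other rises on both scales. NORAD (75.04 to 36.7 TPM) and TUG1 (20.1 to 10.01 TPM) were lower as deposited alone.

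Protein-coding genes also stood among the 12 largest rises. The lysosomal protease cathepsin S, CTSS (chromosome 1, 150730196 to 150765957), went from 12.8, 12.5 and 8.98 TPM to 39.7, 35.1 and 46.7 TPM, 3.55-fold higher (log2 change 1.75 ± 0.17 (SE), adjusted p = 2.95e-06). AIM2, a sensor of cytosolic DNA, went from 18.8, 16.7 and 19.97 TPM to 53.4, 45.4 and 52.9 TPM (log2 change 1.402 ± 0.11 (SE), adjusted p = 5.87e-07). IFI44, an interferon-stimulated gene, went from 4.297, 3.81 and 8.11 TPM to 19.3, 16.04 and 16.4 TPM (log2 change 1.57 ± 0.195 (SE), adjusted p = 2.07e-05). The rule that named CTSS, AIM2 and IFI44 required that the groups did not overlap. The delta-globin gene HBD, chosen after its values were seen, rose from 8.401, 9.89 and 6.25 TPM to 19.98, 17.6 and 25.1 TPM, while beta-globin HBB was listed at 0 in the day 2 libraries and at 1.14, 0.463 and 0.101 TPM in the day 3 libraries.

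The interferon-stimulated genes did not move as 1 group. Of 37 tested, 4 were called higher and 13 lower as deposited, against 3.22% and 55.5% of all features, and 13 higher and 2 lower after rescaling, against 14.3% and 13.6% (median log2 change -0.203, or 0.24 after rescaling). The 4 higher on both scales were IFI44, IFIT1 (2.22, 3.38 and 3.85 TPM to 9.22, 7.597 and 9.57 TPM), IFI44L (0.981 to 3.43 TPM) and IFIT5 (8.07 to 12.3 TPM). MX2, an antiviral GTPase, fell on both scales from 25.003, 21.9 and 19.9 TPM to 8.01, 10.6 and 7.599 TPM (log2 change -1.27 ± 0.16 (SE), adjusted p = 2.16e-05), as did IFI30 (102 to 42.4 TPM). MX1 (179.8 to 85.8 TPM), OAS2 (76.6 to 41.4 TPM) and ISG20 (129 to 71.04 TPM) were lower as deposited alone. The most abundant member, IFI27, stood at 1119.5, 1071 and 1119.9 TPM and 1423, 1433 and 1509 TPM (log2 change 0.398) and was called higher after rescaling. IRF9 (68.2 to 74.4 TPM), ISG15 (127 to 117 TPM) and BST2 (524 to 509 TPM) had log2 changes of 0.12, -0.12 and -0.047 as deposited and were called higher after rescaling.

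Upstream windows are shown for IFI44 and IFIT1, a pair that rose on both scales, with capitals on the interferon response letters, which are GAAA, any 2 bases and GAAA again, searched on both strands (RefSeq, GRCh38.p14, 250 bases before the start). The IFIT1 window reaches into the GENCODE 29 gene.
IFI44, chr1:78649539-78649788, plus strand: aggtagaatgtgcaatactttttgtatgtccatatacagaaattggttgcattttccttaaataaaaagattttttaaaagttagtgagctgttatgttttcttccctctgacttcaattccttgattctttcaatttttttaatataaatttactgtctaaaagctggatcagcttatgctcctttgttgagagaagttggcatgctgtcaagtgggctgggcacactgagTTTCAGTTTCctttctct
IFIT1, chr10:89392373-89392622, plus strand: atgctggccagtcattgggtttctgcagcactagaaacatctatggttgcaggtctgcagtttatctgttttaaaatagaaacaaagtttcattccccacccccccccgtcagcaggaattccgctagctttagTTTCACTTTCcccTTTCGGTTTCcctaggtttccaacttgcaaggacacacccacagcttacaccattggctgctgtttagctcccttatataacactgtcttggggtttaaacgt
These letters were found in 4 of 4 of the genes higher on both scales and in 14 of 28 of the whole list with a window (50%), beside 2.39% of tested features and 3.07% of all windows.

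Of 21 MHC and peptide-loading genes 1 was called higher and 5 lower as deposited, and 4 higher and 0 lower after rescaling. These are 23.8% and 0% lower, beside 55.5% and 13.6% of all features. B2M, the light chain of MHC class I, rose on both scales from 4005, 3798 and 4213 TPM to 7115, 6219.9 and 7654 TPM (log2 change 0.801 ± 0.071 (SE), adjusted p = 1.79e-06). Of the heavy chain genes HLA-B (178 to 157 TPM) was not called, and HLA-C (336 to 233 TPM) was lower as deposited alone. ERAP1, which trims peptides in the ER, had the largest fall (33.2 to 15.1 TPM, log2 change -1.097 ± 0.13 (SE), adjusted p = 1.47e-05).

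In the NF-kB list 18 of 24 (75%) were called lower on the deposited scale and 2 (8.33%) after rescaling, beside 55.5% and 13.6% of all features. On the same scales 0 and 2 were called higher, beside 3.22% and 14.3% of all features. The subunit RELA (28.9 to 12.3 TPM, log2 change -1.17 ± 0.16 (SE), adjusted p = 3.20e-05) and its target ICAM1 (38.7 to 17.5 TPM) were lower on both scales. The chemokine CCL3 went from 443, 479 and 409.8 TPM to 308, 325 and 303 TPM and CCL4 from 44.97, 45.3 and 39.01 TPM to 25.9, 23.8 and 22.3 TPM, both called lower as deposited alone. RGS1, a regulator of G protein signalling, had the largest positive value (37.2, 36.2 and 41.5 TPM to 57.6, 43.9 and 57.8 TPM, log2 change 0.45 ± 0.14 (SE), adjusted p = 0.01204) and was called higher after rescaling. In the AP-1 and immediate-early list 16 of 20 (80%) were called lower on the deposited scale and 3 (15%) after rescaling, beside 55.5% and 13.6% of all features. FOS was the member called higher on both scales, at a low level (0.509, 0.883 and 0.572 TPM to 2.81, 3.74 and 3.26 TPM, log2 change 1.37 ± 0.15 (SE), adjusted p = 7.94e-06), while NR4A1 (4.09 to 1.298 TPM), IER2 (46.6 to 20.5 TPM) and EGR1 (1.86 to 0.351 TPM) were lower on both.

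Of 31 tested apoptosis genes 12 were called lower and 3 higher as deposited, and 0 lower and 6 higher after rescaling (median log2 change -0.37, or 0.12 after rescaling). These are 38.7% and 0% lower, beside 55.5% and 13.6% of all features, and 3.22% and 14.3% of all features were higher. The BH3-only gene PMAIP1 (NOXA) rose from 9.41, 8.88 and 9.75 TPM to 19.5, 16.4 and 17.7 TPM (log2 change 0.86 ± 0.12 (SE), adjusted p = 4.80e-05). TNFSF10, which encodes the death ligand TRAIL, rose from 4.66, 3.604 and 4.13 TPM to 7.804, 7.92 and 7.81 TPM without overlap (log2 change 0.79 ± 0.12 (SE), adjusted p = 6.34e-05). The TRAIL receptor genes TNFRSF10A (19.9 to 13.5 TPM) and TNFRSF10B (15.4 to 9.96 TPM) were lower as deposited alone, and caspase 8 (CASP8) stood at 52.6 and 46.4 TPM. BMF, another BH3-only gene, had the largest fall (22.5 to 10.2 TPM, -1.08). The survival gene MCL1 went from 498, 495 and 495 TPM to 303, 352 and 274 TPM, log2 change -0.68 as deposited and -0.051 after rescaling.

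Of 28 tested plasma cell factors and myeloma surface genes 19 were called lower and 1 higher, and after rescaling 4 lower and 3 higher. These are 67.9% and 14.3% lower, beside 55.5% and 13.6% of all features, so the rescaled share was close to that of all features. The integrin ITGB7 fell on both scales from 1424, 1529 and 1349.7 TPM to 549.7, 681 and 545 TPM (log2 change -1.28 ± 0.11 (SE), adjusted p = 1.82e-06), as did CD44 (630.4 to 276 TPM), IL6R (190.1 to 82.3 TPM) and IKZF1 (26.5 to 11.3 TPM). TNFRSF17, which encodes the surface receptor BCMA, rose on both scales from 1328, 1158 and 1320.4 TPM to 2049, 1846 and 2172 TPM (log2 change 0.67 ± 0.074 (SE), adjusted p = 9.23e-06). The factor IRF4 (198 to 96.3 TPM), MZB1 (439.97 to 203 TPM) and the surface proteins CD38 (89.0 to 46.8 TPM) and SDC1 (CD138, 329 to 178 TPM) were lower as deposited alone, and PRDM1 (BLIMP1) was not called (-0.34). JCHAIN went from 18203, 15062 and 17481 TPM to 24865, 21853 and 24249 TPM (0.49, 1.12 after rescaling) and the kappa gene IGKC the other way, from a mean of 25256 to 15128 TPM (log2 change -0.74 ± 0.11 (SE), adjusted p = 8.49e-05, -0.11 after rescaling). Of the 5 immunoglobulin constant genes tested IGKC and IGLC1 were called lower, and IGLC2, at 1.89, 3.42 and 0.945 TPM and 3.71, 3.44 and 2.89 TPM, was called higher with overlapping groups, a call lost without day 2 library 1 or 3 or any of the day 3 libraries (adjusted p from 0.0509 to 0.235). The change of IGLC1 was -0.45 without day 2 library 2.

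Cytoplasmic ribosomal protein genes rose in part. Of 77 tested, 23 were called higher and 11 (14.3%) lower as deposited, against 3.22% and 55.5% of all features. After rescaling 49 (63.6%) were higher and 0 lower, against 14.3% and 13.6% of all features. The median log2 change was 0.12, or 0.76 after rescaling. RPS27, the most abundant feature at day 3, rose from 34633, 33213 and 36239 TPM to 64610.4, 55545 and 66224 TPM (log2 change 0.84 ± 0.064 (SE), adjusted p = 4.23e-07). RPL41 went from 13300.5, 13663 and 14485 TPM to 20186, 18362 and 20585 TPM (log2 change 0.51, or 0.48 without day 2 library 1, 0.49 without day 3 library 1 and 0.48 without day 3 library 3, under the threshold of 0.5). RPL39 had the largest rise (6901, 6228 and 6849 TPM to 13186, 11719 and 14420.2 TPM, log2 change 0.97 ± 0.070 (SE), adjusted p = 2.30e-07) and RPS28 the largest fall (1744 to 1046 TPM, -0.74). These short transcripts have many processed copies in the genome, and the split of reads between them is not known.

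Among 34 ribosome biogenesis genes 27 were called lower as deposited and 9 after rescaling, led by MYBBP1A (27.2, 26.9 and 24.5 TPM to 6.75, 12.2 and 7.42 TPM, log2 change -1.51 ± 0.18 (SE), adjusted p = 1.68e-05), with NOLC1 (95.4 to 33.6 TPM) and the RNA polymerase I subunit POLR1A (13.6 to 4.94 TPM). These are 79.4% and 26.5% lower, beside 55.5% and 13.6% of all features. GNL3 was the largest positive value (0.201) and, with NPM1 and RRP9, was called higher after rescaling. Among 34 translation factors 23 were lower and 1 higher as deposited, and 7 lower and 4 higher after rescaling. These are 67.6% and 20.6% lower, beside 55.5% and 13.6% of all features. The release factor GSPT1 (82.6 to 30.6 TPM, log2 change -1.41 ± 0.15 (SE), adjusted p = 6.67e-06), EIF4G1 (101 to 39.02 TPM), the helicase EIF4A1 (553 to 238 TPM) and PABPC1 (1641 to 717 TPM) fell on both scales. EIF3E rose on both, from 868, 707 and 833 TPM to 1403, 1170.1 and 1447 TPM (log2 change 0.74 ± 0.092 (SE), adjusted p = 2.07e-05).

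No mitochondrially encoded messenger was called lower. Of 13, 1 was called higher and 0 lower as deposited, beside 3.22% and 55.5% of all features. After rescaling 12 (92.3%) were higher and 0 lower, beside 14.3% and 13.6% of all features. MT-ND3 was the 1 called as deposited (8149.6, 7057 and 8171 TPM to 12418, 10849.7 and 11206 TPM, log2 change 0.56 ± 0.098 (SE), adjusted p = 2.28e-04, with a log2 change of 0.49 without day 2 library 2), MT-CO1 went from 12887, 14545 and 13805 TPM to 18282, 16162 and 21223 TPM (0.43) and MT-ATP8 overlapped at 23107, 17155 and 20017 and 21527, 20624 and 19045 TPM. MT-ND6, read from the other strand, was the lowest (-0.29). The ribosomal RNA MT-RNR2 rose from a mean of 5239 to 8578 TPM (log2 change 0.71 ± 0.060 (SE), adjusted p = 1.21e-06) while MT-RNR1, at 816 to 1046 TPM, was called higher only after rescaling. The nuclear genes of the respiratory chain split, with 20 of 46 lower and 4 higher as deposited, and 1 lower and 20 higher after rescaling. These are 43.5% and 2.17% lower, beside 55.5% and 13.6% of all features, and 3.22% and 14.3% of all features were higher. The 4 rises were UQCRB (857, 717 and 836 TPM to 1416, 1196 and 1409.8 TPM, log2 change 0.74 ± 0.091 (SE), adjusted p = 1.96e-05), COX7C (1241 to 1994 TPM), ATP5F1E (96.4 to 144 TPM) and NDUFA4 (68.4 to 99.4 TPM), and the fall on both scales was COX8A (432 to 178 TPM, -1.28). Among 78 mitochondrial ribosomal protein genes 27 (34.6%) were lower and 6 higher as deposited, and 1 (1.28%) and 28 (35.9%) after rescaling. Of all features 55.5% were lower and 3.22% higher as deposited, and 13.6% and 14.3% after rescaling. The list ran from MRPL10 (28.8 to 12.7 TPM, -1.15) to MRPS33 (109 to 174 TPM, 0.66).

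In glycolysis 17 of 22 (77.3%) were called lower on the deposited scale and 5 (22.7%) after rescaling, beside 55.5% and 13.6% of all features (median log2 change -0.87, or -0.32 after rescaling). GPI, the isomerase of glucose 6-phosphate, had the largest fall (157, 161 and 141 TPM to 47.2, 74.1 and 51.97 TPM, log2 change -1.41 ± 0.19 (SE), adjusted p = 3.78e-05), and HK2 (22.02 to 8.198 TPM), GAPDH (972 to 396 TPM), PFKP (77.7 to 32.4 TPM) and ALDOA (426 to 194 TPM) were the others lower on both scales. LDHB was the exception (407 to 527 TPM, 0.37, called higher after rescaling). In sterol and fatty acid synthesis 26 of 31 (83.9%) were called lower on the deposited scale and 7 (22.6%) after rescaling, beside 55.5% and 13.6% of all features (median log2 change -0.997, or -0.397 after rescaling). The fatty acid synthase FASN (23.7 to 9.57 TPM), ACLY (39.6 to 15.98 TPM), the desaturases SCD (115 to 48.1 TPM), FADS1 and FADS2 and the regulator SREBF2 (38.8 to 17.3 TPM) were lower on both scales. SC5D (0.33) and IDI1 (0.297) were called higher after rescaling.

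Of 38 proteasome genes 21 were lower and 1 higher as deposited, and 7 lower and 8 higher after rescaling. These are 55.3% and 18.4% lower, beside 55.5% and 13.6% of all features, and 3.22% and 14.3% of all features were higher. The regulatory subunit PSMD2 fell furthest (80.8, 78.7 and 65.3 TPM to 25.02, 38.5 and 25.5 TPM, log2 change -1.33 ± 0.19 (SE), adjusted p = 6.42e-05), while the assembly factor POMP rose from 62.7, 49.1 and 60.8 TPM to 81.7, 77.3 and 87.1 TPM (0.51), a change just over the threshold that was 0.40 without day 2 library 2 and 0.47 without day 3 library 3. The alpha subunits PSMA2, PSMA3, PSMA4 and PSMA6 had log2 changes between 0.297 and 0.46 as deposited and were called higher after rescaling. In the lysosome and autophagy list 32 of 42 (76.2%) were called lower on the deposited scale and 3 (7.14%) after rescaling, beside 55.5% and 13.6% of all features, from GLA (9.51 to 3.59 TPM, -1.19) to the rise of CTSS. Of the heat shock genes 16 of 24 (66.7%) were called lower on the deposited scale and 4 (16.7%) after rescaling, beside 55.5% and 13.6% of all features. HSPA1B had the largest fall (29.2, 30.9 and 24.3 TPM to 8.39, 10.7 and 7.18 TPM, log2 change -1.59 ± 0.198 (SE), adjusted p = 2.11e-05), and HSP90AA1 rose from 621, 571 and 629 TPM to 921, 811 and 937 TPM (log2 change 0.55 ± 0.074 (SE), adjusted p = 3.67e-05) while its relative HSP90AB1 went from 456 to 243 TPM.

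In the antioxidant and iron list 15 of 24 (62.5%) were called lower on the deposited scale and 1 (4.17%) after rescaling, beside 55.5% and 13.6% of all features. The transferrin receptor TFRC was the member lower on both scales (131, 135 and 142 TPM to 50.5, 64.01 and 44.3 TPM, log2 change -1.36 ± 0.13 (SE), adjusted p = 4.28e-06), the ferritin genes FTH1 (353 to 160.04 TPM) and FTL (7939 to 4389 TPM) were lower as deposited, and thioredoxin TXN was the highest (426 to 592 TPM, 0.47). Of the splicing factors 28 of 35 (80%) were called lower on the deposited scale and 11 (31.4%) after rescaling, beside 55.5% and 13.6% of all features. HNRNPA1 fell from 1397, 1529 and 1456 TPM to 501, 657 and 457 TPM (log2 change -1.46 ± 0.15 (SE), adjusted p = 6.95e-06), and the kinase CLK1 had the largest positive value (44.04 to 57.5 TPM, 0.39). Of 9 symbols the paper ties to bortezomib resistance, a list chosen by the study, 8 were called lower as deposited and 0 after rescaling in either direction, beside 55.5% lower as deposited and 13.6% lower and 14.3% higher after rescaling of all features. NRF1 was matched by its symbol and is nuclear respiratory factor 1, whereas the factor that DDI2 activates is encoded by NFE2L1 (-0.702, -0.099 after rescaling), so its place in this list is uncertain. Their log2 changes ran from -0.96 (DDI2, 6.55 to 2.92 TPM) through KEAP1 (-0.82), PHGDH (-0.77), PSAT1 (-0.64), PSPH (-0.63), NRF1 (-0.63), BAX (-0.62) and XPO1 (-0.55, or -0.49 without day 3 library 3) to -0.45 for PSMB5, the proteasome subunit that bortezomib binds (57.3, 59.1 and 52.2 TPM to 39.5, 41.2 and 41.9 TPM, not called). After rescaling they lay between -0.45 and 0.17.

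What the called genes shared beyond the lists was described with GENCODE 29, in which 97.2% of the tested features had 1 entry. Of 10441 protein-coding genes 59.8% were called lower as deposited, against 19.97% of 641 long noncoding and 25.9% of 410 pseudogene features, and 2.53%, 8.74% and 6.34% of these classes were called higher. The median log2 change went from -0.44 in the 2090 genes whose longest transcript was shortest (207 to 2134 bases) to -0.73 in the 2088 in which it was longest (5936 to 34526 bases). By the GC content of that transcript it went from -0.36 in the lowest of 5 bins (up to 40.5% GC) to -0.74 in the next to highest and -0.68 in the highest. After rescaling 24.5% of the shortest bin and 6.75% of the longest were called higher, and 28.3% of the lowest GC bin and 3.64% of the highest. Genes are not independent replicates, these are descriptions across genes, and their part in the list results was not tested.

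The levels at day 0 and day 5, given as a description because the steps share libraries, placed the named genes on different courses. RRM2 stood at 486, 450.4 and 463 TPM at day 0 and 1.65, 1.28 and 1.01 TPM at day 5, so that day 2 was already lower than day 0 and day 5 lower than day 3. CDC20 likewise had 112, 33.1, 2.23 and 0.662 TPM on the successive days. HSPA5 and RPN2 were at or above their day 0 levels at day 2 (225 and 280.3 TPM for HSPA5, 428 and 455 TPM for RPN2) and below them at day 3. MYC had a mean of 86.7 TPM at day 0 and 41.9 TPM at day 5 as deposited, and whether it was lower after rescaling was not tested. CTSS, B2M and MALAT1 had their lowest mean at day 0 (3.28, 2054 and 84.4 TPM) and their highest at day 5 (49.9, 7971 and 496 TPM). TNFSF10 had its highest mean at day 3 and stood at 0.224, 0.196 and 0.147 TPM at day 0 and 5.41, 5.21 and 5.703 TPM at day 5. Over all features the step from day 0 to day 2 gave 2774 lower and 959 higher calls as deposited, and the step from day 3 to day 5 gave 1565 and 80, beside 6624 and 384 for the step between. After rescaling they were 1360 and 1542, 242 and 529, and 1624 and 1713.

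**Figure D4:**
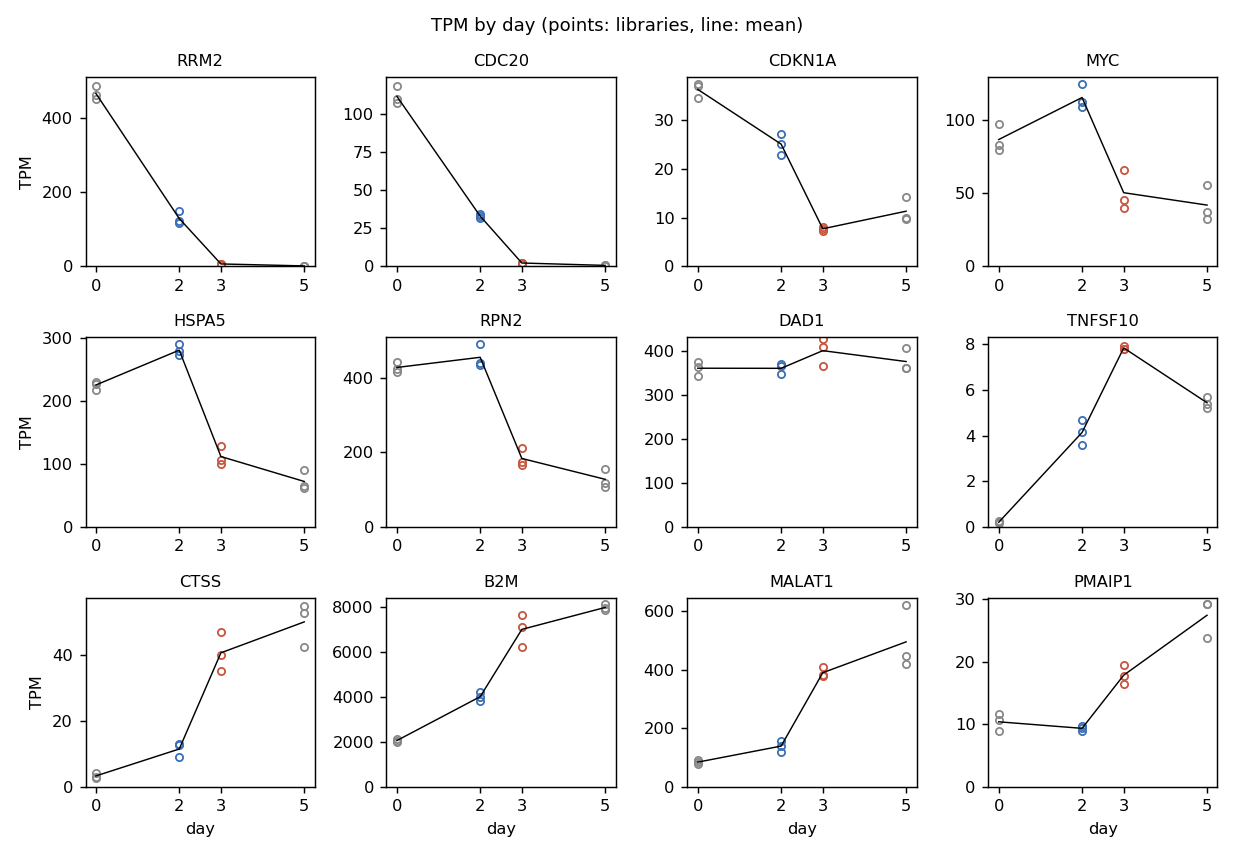
Deposited TPM of 12 genes by day, with 1 point per library (blue day 2, red day 3, grey day 0 and day 5) and a line through the means. RRM2 and CDC20 fall at each step, MYC, HSPA5 and RPN2 fall between day 2 and day 3, and CTSS, B2M, MALAT1 and PMAIP1 rise between them.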

How the data were processed

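Total RNA was sequenced in 12 libraries, 3 each of day 0, day 2, day 3 and day 5. The authors deposited 1 table of log2(TPM + 1) for 59276 features, and the submitters' processing notes name FastQC, Trimmomatic, STAR and Salmon and the build hg38, without versions. The annotation is not given in the sources used here. The labels state over 60 M read pairs and 200 ng of RNA per library, but TPM keeps no depth, so no counting interval was given.

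The 11939 features that 3 or more libraries held at 1 TPM or above were fitted with limma 3.58.1 in R 4.3.3, using all 12 libraries, 1 mean per group and a mean-variance trend. The contrast was day 3 minus day 2, and calls needed a Benjamini-Hochberg adjusted p under 0.05 and a log2 change over 0.5 in size. The fit was repeated after rescaling. Fold changes on the log2(TPM + 1) scale understate those of low genes. The code was tested on simulated data. Shares of TPM were compared by exact permutation tests (scipy 1.17.1).

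Named by rule were the 12 largest rises and falls called on both scales averaging 10 TPM or more and without overlap of the groups, the extremes of each list, the genes the paper names, the 5 most abundant features at day 3 and the OST subunits. The rule's further class, lower as deposited and higher after rescaling, held 0 features. Other list genes were chosen after their values were seen. Some genes, 1 of them named by the rule, are not reported here. Members and lists were chosen with earlier results of these data known. Alternatives were another pseudocount, filter, threshold, fit and scaling, and leaving out each library.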

Additional observations from a re-analysis of the deposited data

How the results depend on the processing

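The counts depended most on the scaling and the threshold. Rescaling gave 1624 lower and 1713 higher calls in place of 6624 and 384, and a median log2 change of -0.072 in place of -0.57, which was -0.71 with a pseudocount of 0.1. A log2 threshold of 1 gave 1983 lower and 46 higher as deposited, and 241 lower and 486 higher after rescaling. Leaving out the 20 most abundant features gave 649 higher calls. The ribosomal protein share differed by 11.2 points of the TPM left without mitochondrial features, and the mitochondrial share by 6.43 points of the TPM left without ribosomal protein genes. Without 1 library the counts ran from 6140 to 7004 lower and 324 to 452 higher, and after rescaling from 1307 to 2066 lower and 1566 to 1867 higher. No paired analysis was possible because the labels carry no replicate numbers that tie libraries across days.

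Over all tested features 3436 log2 changes turned from negative to positive after rescaling. Among the 124 genes recomputed under each alternative these were E2F5 (0.56), MYCBP (0.56), CNPY2 (0.54), DDIT3 (0.49), PSMB5 (0.17), FCER2 (0.17), CD3E (0.43), MT-ND6 (0.34), RARS1 (0.38), XPO1 (0.065), BAX (0.0049), STT3B (0.25), OST4 (0.40), TMEM258 (0.57), MAGT1 (0.37), IGLC1 (0.080) and FGFR3 (0.19). Without single libraries the sign also turned for E2F5, MT-ATP8 and OSTC, whose values ran from -0.12 to 0.090, from -0.078 to 0.14 and from -0.052 to 0.096 over the libraries left out. With a pseudocount of 0.1 the call of RNU1-1 was lost (limma adjusted p = 0.111). In a fit of the 6 libraries alone 2 of the 92 calls among them were lost, H4C11 and IGLC2. The list medians relative to all features changed sign only for the proteasome, the antioxidant and iron, and the bortezomib lists, among the settings run. Depth cannot be read from TPM, so what it limits is unknown.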
